A study of Mus musculus with 12 samples.

Results

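Angiopoietin-like proteins and the genes that make, place and restrain lipoprotein lipase were followed in mouse liver after 3 insulins and saline. The set held 9 genes out of 19937 measured: the angiopoietin-like genes Angptl8, Angptl4 and Angptl6, the lipases Lpl and Lipg, the lipase partners Gpihbp1 and Lmf1, the receptor Vldlr and the transcription factor Creb3l3. A gene was taken where a probe set carried its symbol alone, each of the 9 had 1 such probe set, and all 9 passed the filter on dim probe sets. Of several probe sets of a gene, the one kept would have been selected on the highest mean over the 12 arrays, a step that no gene needed. Otherwise the genes were chosen by name, with the differences between treatments on these arrays already known, so the calls given for them are a description of the set.

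Wild type C57BL/6 mice, 6 weeks old by the labels (the study's methods give another age), received Albulin, Insulin-Apo, insulin glargine or saline under the skin, each insulin at 55 nmol/kg, and livers were taken 6 h later. Albulin is insulin fused to albumin, Insulin-Apo is a single-chain insulin fused to human apolipoprotein A-I, and insulin glargine is a long-acting insulin analogue. Each treatment had 3 arrays, which the labels number without saying that each came from a separate mouse, so p-values measure the spread between these samples, which may be technical. All groups were mice without induced diabetes, seen at 1 dose and 1 time.

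Lipoprotein lipase releases fatty acids from circulating triglyceride on the capillary wall. It folds with the help of Lmf1 and is carried across the endothelial cell by Gpihbp1, and it is switched off by angiopoietin-like proteins. Angptl4 dominates that restraint in fasting, and Angptl8, made by liver and fat after a meal, restrains the lipase of muscle and heart. In liver, insulin is a known inducer of Angptl8, Lpl is expressed mainly outside hepatocytes in the adult, and Creb3l3 (CREBH) switches on several genes of triglyceride clearance during fasting.

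Array values were log2 expression after robust multichip averaging, a method that corrects background and scales the arrays normalised together. The sources do not say whether the insulin glargine arrays were normalised with the other 9, and if they were not, that step and the treatment cannot be told apart in any comparison with insulin glargine. Array medians lay between 7.70 and 7.77. Arrays of 1 treatment correlated with one another at 0.995 to 0.997 after Albulin, Insulin-Apo and saline, and at 0.990 to 0.993 after insulin glargine, where replicate 3 was lowest. Hepatocyte markers, 7 genes, averaged 14.5 to 14.6 in every array. A gene was called when limma's B statistic, the log odds that it differs, was over 0, and limma p-values adjusted over all probe sets are given beside it. The number of arrays, 3 per treatment, limits the precision.

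Promoter windows are shown for Angptl8, the gene of the set with the widest spread of treatment means, and for its relative Angptl6, the one with the narrowest. They run from 250 bases before to 50 bases after the RefSeq gene start (GRCm38.p6). Capitals mark the longest inverted repeat in each window, that is, letters that read the same on the other strand after a spacer of at most 10 bases.
Angptl8, chr9:21835260-21835559, plus strand: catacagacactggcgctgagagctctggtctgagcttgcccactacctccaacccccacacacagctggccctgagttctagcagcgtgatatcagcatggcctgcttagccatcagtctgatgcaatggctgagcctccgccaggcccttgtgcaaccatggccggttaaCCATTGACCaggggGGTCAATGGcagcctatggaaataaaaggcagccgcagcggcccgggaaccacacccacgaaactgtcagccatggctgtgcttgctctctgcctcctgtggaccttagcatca
Angptl6, chr9:20879661-20879960, minus strand: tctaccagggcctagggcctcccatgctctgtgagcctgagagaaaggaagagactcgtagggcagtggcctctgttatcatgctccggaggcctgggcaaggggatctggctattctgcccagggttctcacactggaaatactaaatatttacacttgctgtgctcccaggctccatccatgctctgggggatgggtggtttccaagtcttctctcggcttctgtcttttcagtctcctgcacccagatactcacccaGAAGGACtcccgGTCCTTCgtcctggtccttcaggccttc
In the Angptl8 window CCATTGACC and GGTCAATGG, 9 bases each, faced each other across 5 bases, from base 78 to base 56 before the start, and 3.04% of 32851 windows held arms of that length or longer. The arms in the Angptl6 window were 7 bases long, as long or longer in 26.3% of windows. Among 7 motifs searched on both strands, none was found in either window, which says only that those letters were not there. They were the E-box CACGTG (in 7.15% of windows), the nuclear receptor half-site AGGTCA (16.3%), the FoxO site GTAAACA (3.65%), the glucocorticoid receptor half-site AGAACA (19%), the CRE half-site TGACG (20.8%), the TATA box TATAAA (13.6%) and the sterol response element TCACCCCAC (0.551%). The RefSeq table held windows for 5 of the 9 genes, and Angptl4, Lpl, Lipg and Gpihbp1 were not matched.

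The clearest values of the set were those of Angptl8 after Albulin. After Albulin, 1 of the 9 genes was called, Angptl8, which was lower than after saline, where 1.04% of all probe sets were called lower and 2.41% either way. After Insulin-Apo none of the 9 was called, against 2.14% of probe sets, while 3 had an unadjusted limma p under 0.05, against 17.4% of probe sets. After insulin glargine 1 was called, Gpihbp1, which was higher than after saline, with 2.24% of probe sets called higher and 4.84% either way. These shares are the background, and the set was too small and too selected for its counts to be read against them as a test. In whole liver RNA, fewer cells of a type and less RNA per cell cannot be told apart. The 3 comparisons with saline use the same saline arrays.

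**Figure D1:**
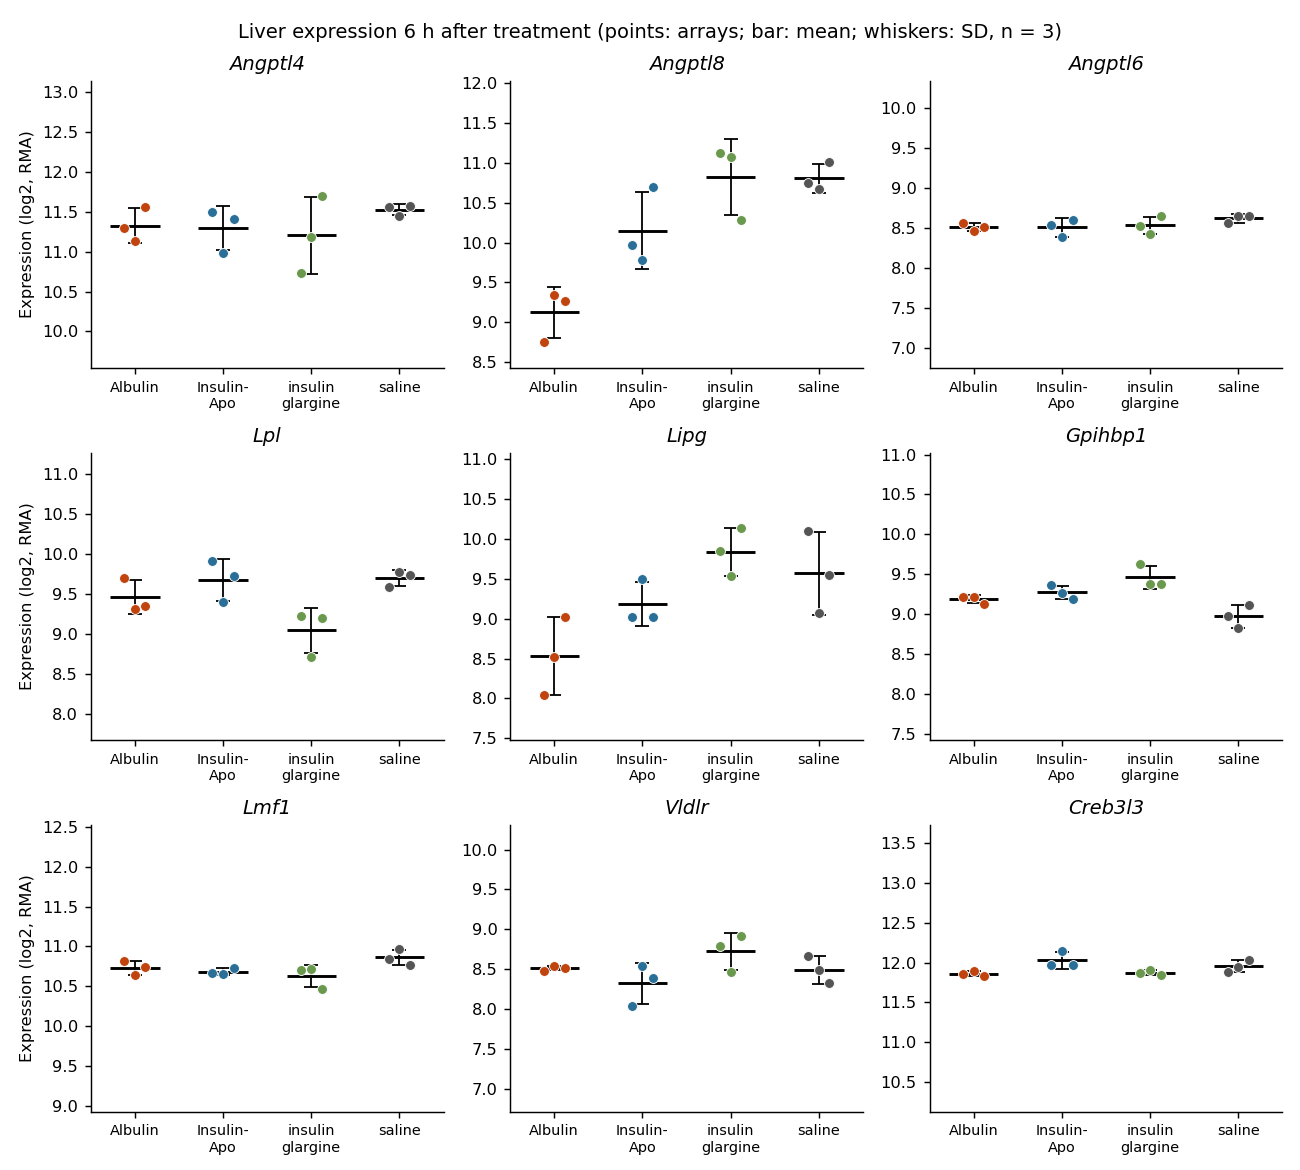
Log2 expression (RMA) of the 9 genes in each array, by treatment. Points are arrays, thick bars the means and whiskers the SD (n = 3); every panel spans the same number of log2 units around its own gene. The Angptl8 points after Albulin, 8.76 to 9.35, lie below all other points of that gene, and the Gpihbp1 points after saline, 8.82 to 9.12, lie below those after each insulin.

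Angptl8 had log2 expression of 8.76, 9.35 and 9.27 after Albulin, 9.97, 9.78 and 10.70 after Insulin-Apo, 11.12, 11.07 and 10.28 after insulin glargine, and 10.74, 10.67 and 11.01 after saline. All 3 Albulin arrays were below every other array, and 11.7% of probe sets had all 3 Albulin arrays below saline. The insulin glargine arrays lay on either side of the saline arrays, and replicate 3 stood apart from the other arrays of its group after Insulin-Apo, above them, and after insulin glargine, below them. Mean log2 expression was 9.13 ± 0.32 after Albulin, 10.15 ± 0.48 after Insulin-Apo, 10.82 ± 0.47 after insulin glargine and 10.81 ± 0.18 after saline (SD, n = 3 each). Albulin minus saline was -1.68 on the log2 scale (SE 0.22), a level 3.21-fold lower (95% interval 2.29 to 4.48), with a limma adjusted p of 0.00234. The gene stood at rank 114 of 25989 probe sets by p in that comparison.

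Insulin-Apo minus saline was -0.66 for Angptl8 (SE 0.22, limma adjusted p = 0.136) and was not called. Insulin-Apo replicate 3, at 10.70, fell among the saline arrays, and without it the difference was -0.93 and was called (limma adjusted p = 0.0129). Without Insulin-Apo replicate 2 the difference was -0.47 and was not called (limma adjusted p = 0.352). Insulin glargine minus saline was 0.02, with a 95% interval of -0.54 to 0.58 and a limma adjusted p of 0.986. That interval leaves room for a change of about 1.5-fold either way (0.686 to 1.49 as a ratio), so it does not show that the level was the same.

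The range of the 4 treatment means of Angptl8 was 1.70 log2 units, and 0.373% of probe sets had a wider one. The pooled SD within treatments was 0.38, larger in 1.45% of probe sets, so the gene also varied more than most between arrays of 1 treatment. In the order of its means, insulin glargine, saline, Insulin-Apo, Albulin, no neighbouring pair was called. Angptl8 lies inside the span of Dock6, and the probe set of Dock6 differed from saline by -0.04 after Albulin, -0.04 after Insulin-Apo and 0.04 after insulin glargine, with no call. Neutrophil markers, 9 genes all above the filter, moved in part in the same comparison. S100a8, S100a9 and Cxcr2 were called higher after Albulin, by 0.95, 0.64 and 0.92. Ly6g and Retnlg differed by 0.49 and 0.84, and Mpo, Elane, Camp and Ngp by 0.04, -0.03, 0.006 and 0.13, none called. The log2 of the summed list was 10.8 to 11.0 after Albulin against 10.3 to 10.5 after saline. The part of neutrophils in the Angptl8 result was not tested. The 7 hepatocyte markers had no call and a median difference of -0.05 after Albulin. Among them Fgb differed by 0.26 (limma adjusted p = 0.0304) and Cps1 by -0.15 (limma adjusted p = 0.253).

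Angptl4, which unfolds lipoprotein lipase and is a target of the PPAR receptors, had log2 expression of 11.30, 11.13 and 11.55 after Albulin, 11.50, 10.99 and 11.41 after Insulin-Apo, 10.73, 11.18 and 11.70 after insulin glargine, and 11.56, 11.45 and 11.57 after saline. The saline arrays sat close together and the insulin arrays reached below them in each group while overlapping them in each. Differences from saline were -0.20 after Albulin, -0.23 after Insulin-Apo and -0.32 after insulin glargine, with limma adjusted p of 0.498, 0.431 and 0.411. The widest interval, after insulin glargine, ran from -0.77 to 0.12. Its SD was 0.48 after insulin glargine and 0.07 after saline, so the insulin glargine arrays varied among themselves by more than their mean differed from saline.

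Angptl6, a liver-secreted relative described in mice as a regulator of energy use, had 8.57, 8.46 and 8.51 after Albulin, 8.53, 8.38 and 8.61 after Insulin-Apo, 8.52, 8.43 and 8.65 after insulin glargine, and 8.56, 8.65 and 8.65 after saline on the log2 scale. All 4 groups overlapped. Differences from saline were -0.10, -0.11 and -0.09 after Albulin, Insulin-Apo and insulin glargine, none called, and no 95% interval reached beyond -0.27. Of 6 other angiopoietins, angiopoietin-like genes and their receptors tested (Angpt1, Angpt2, Angptl1, Angptl7, Tek and Tie1), none was called in any of the 6 comparisons; against saline none had an unadjusted limma p under 0.05, and their differences ran from -0.16 to 0.22.

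Lpl, the lipase itself, had log2 expression of 9.71, 9.32 and 9.36 after Albulin, 9.91, 9.40 and 9.73 after Insulin-Apo, 9.22, 8.71 and 9.20 after insulin glargine, and 9.59, 9.78 and 9.73 after saline. All 3 insulin glargine arrays were below every other array, as against saline alone for 13.1% of probe sets, and the Albulin and Insulin-Apo arrays overlapped saline. Mean log2 expression was 9.04 ± 0.29 after insulin glargine and 9.70 ± 0.10 after saline (SD, n = 3 each). Insulin glargine minus saline was -0.66 (SE 0.16), a level 1.58-fold lower (95% interval 1.24 to 2.00). Its limma adjusted p was 0.0179, under 0.05 as for 10.9% of probe sets, but B was -1.06 and the gene was not called. Albulin minus saline was -0.24 (limma adjusted p = 0.395) and Insulin-Apo minus saline was -0.02 (95% interval -0.32 to 0.27, limma adjusted p = 0.958).

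Lpl is made by macrophages as well as by fat and muscle, and markers of these cells were set beside it. The 10 Kupffer cell and macrophage markers averaged 9.81, 10.14 and 9.46 after insulin glargine and 9.84, 10.04 and 10.08 after saline. Their log2 sum was 13.1 to 13.9 after insulin glargine and 13.5 to 13.9 after saline, all 10 were above the filter in both groups, and none was called, with a median difference of -0.21. The differences of the 10 markers from saline ran from -0.51 to 0.14. Adgre1, which defines macrophages, differed from saline by -0.51 (limma adjusted p = 0.229). Of 6 adipocyte markers only Fabp4 was called after insulin glargine, higher by 0.98, and of 8 skeletal muscle markers none was. The part of these cells in the Lpl result was not tested.

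Lipg, endothelial lipase, which cleaves phospholipids of HDL, had log2 expression of 8.04, 8.52 and 9.02 after Albulin, 9.02, 9.50 and 9.03 after Insulin-Apo, 9.84, 9.53 and 10.13 after insulin glargine, and 10.10, 9.06 and 9.54 after saline. The Albulin arrays were all below the saline arrays, though the highest of them, 9.02, was close to the lowest saline array, 9.06. Albulin minus saline was -1.04 (SE 0.27), a level 2.06-fold lower (95% interval 1.36 to 3.12), which was not called (B of -1.68, limma adjusted p = 0.0570). Insulin-Apo minus saline was -0.39 (limma adjusted p = 0.520) and insulin glargine minus saline was 0.27 (limma adjusted p = 0.676). The spread between arrays of 1 treatment was wide, with SDs of 0.49 after Albulin and 0.52 after saline, and 1.19% of probe sets had a larger pooled SD.

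Gpihbp1, the protein of capillary endothelium that binds lipoprotein lipase and carries it to the vessel lumen, had log2 expression of 9.21, 9.22 and 9.13 after Albulin, 9.36, 9.26 and 9.19 after Insulin-Apo, 9.63, 9.37 and 9.38 after insulin glargine, and 8.97, 8.82 and 9.12 after saline. Every array of every insulin was above all 3 saline arrays, as for 11.6%, 10.4% and 11.8% of probe sets after Albulin, Insulin-Apo and insulin glargine. Insulin glargine minus saline was 0.49 (SE 0.09), a level 1.40-fold higher (95% interval 1.22 to 1.61, limma adjusted p = 0.00485), and was called. Without saline replicate 1, saline replicate 2 or insulin glargine replicate 1 the difference was 0.49, 0.42 and 0.41 and the call was lost. Insulin-Apo minus saline was 0.30 (limma adjusted p = 0.0727) and Albulin minus saline was 0.22 (limma adjusted p = 0.188), neither called.

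Markers of vascular endothelium, where Gpihbp1 is made, were set beside that gene in the same comparison. The 10 markers averaged 9.09, 9.02 and 9.06 after insulin glargine and 8.79, 8.82 and 8.89 after saline, and their log2 sum was 12.6 to 12.7 after insulin glargine and 12.4 to 12.5 after saline. Between these stood Albulin, whose lowest array was at 8.95, and Insulin-Apo, at 8.92 to 8.98. Esam, an adhesion molecule of endothelial junctions, was the only one called after insulin glargine, higher by 0.66. The differences of the 10 from saline ran from -0.02 to 0.66. Their median was 0.18, against -0.0003 over all probe sets. All 10 were above the filter in every group. The 10 sinusoidal endothelial markers, by comparison, had no call after insulin glargine and a median difference from saline of -0.03. Their differences ran from -0.37 to 1.15. The part of either kind of endothelium in the Gpihbp1 result was not tested. The plot of Gpihbp1 against the vascular endothelial markers shows both measures lowest in the saline arrays.

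**Figure D2:**
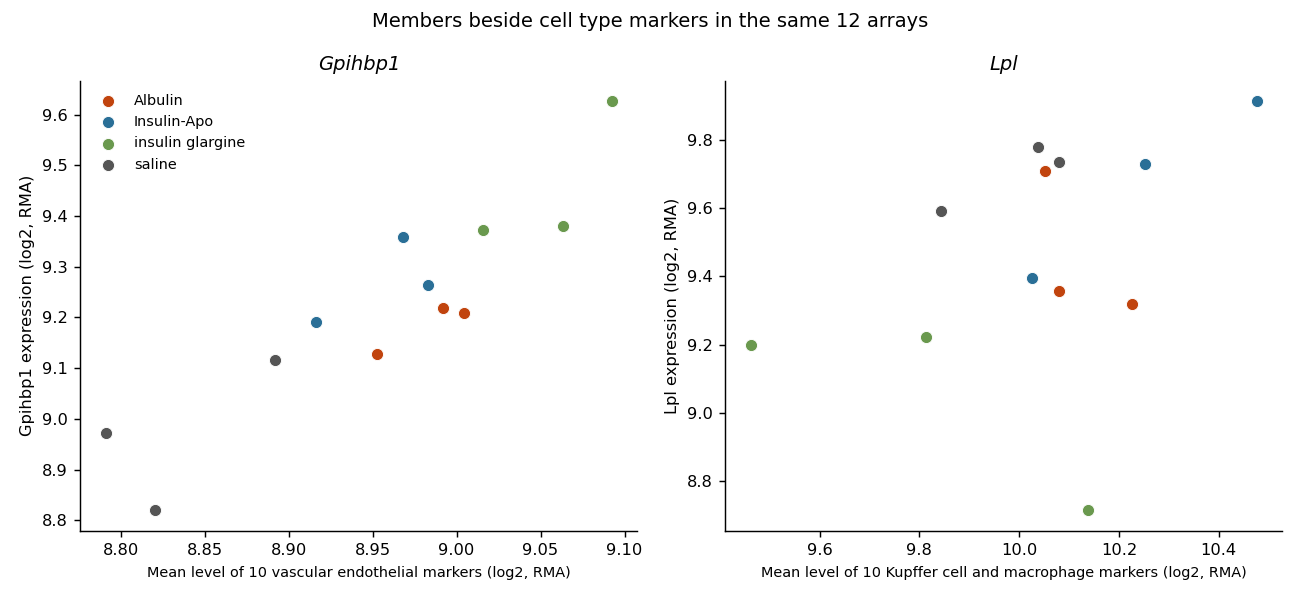
Log2 expression (RMA) of Gpihbp1 against the mean level of 10 vascular endothelial markers (left) and of Lpl against that of 10 Kupffer cell and macrophage markers (right), 1 point per array, 12 arrays, coloured by treatment. On the left the insulin glargine arrays lie at 9.02 to 9.09 and the saline arrays at 8.79 to 8.89 on the marker axis. On the right the insulin glargine arrays lie at 9.46 to 10.14 and the saline arrays at 9.84 to 10.08 on that axis.

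Lmf1, the chaperone of the endoplasmic reticulum that lipases need to fold, had 10.81, 10.64 and 10.74 after Albulin, 10.67, 10.65 and 10.73 after Insulin-Apo, 10.71, 10.71 and 10.47 after insulin glargine, and 10.85, 10.96 and 10.77 after saline on the log2 scale. The Insulin-Apo and insulin glargine arrays were all below the saline arrays, as for 12.7% and 13.1% of probe sets. Differences from saline were small: -0.13 after Albulin, -0.18 after Insulin-Apo and -0.23 after insulin glargine, with limma adjusted p of 0.389, 0.224 and 0.106. None was called. Of 10 other genes of lipase folding, sorting and cleavage (such as Sel1l, Sort1, Furin and Pcsk6), none was called in any of the 6 comparisons. Their differences from saline ran from -0.35 to 0.39.

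Vldlr, the very low density lipoprotein receptor, which binds triglyceride-rich particles, had 8.48, 8.53 and 8.51 after Albulin, 8.04, 8.54 and 8.39 after Insulin-Apo, 8.79, 8.46 and 8.91 after insulin glargine, and 8.67, 8.49 and 8.32 after saline on the log2 scale. Every insulin overlapped saline. Differences from saline were 0.02 after Albulin, -0.17 after Insulin-Apo and 0.23 after insulin glargine (limma adjusted p = 0.972, 0.530 and 0.386), none called. The 3 Albulin arrays were the closest together, with an SD of 0.03, against 0.17 after saline.

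Creb3l3, the membrane-bound transcription factor of liver and gut, had 11.86, 11.89 and 11.83 after Albulin, 11.96, 12.15 and 11.97 after Insulin-Apo, 11.87, 11.90 and 11.85 after insulin glargine, and 11.89, 11.94 and 12.04 after saline on the log2 scale. Differences from saline were -0.10, 0.07 and -0.08 after Albulin, Insulin-Apo and insulin glargine, none called, and the widest 95% interval reached -0.25. The pooled SD was 0.07, exceeded by 90.2% of probe sets. RNA says nothing of the cleavage that activates this protein.

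**Figure D3:**
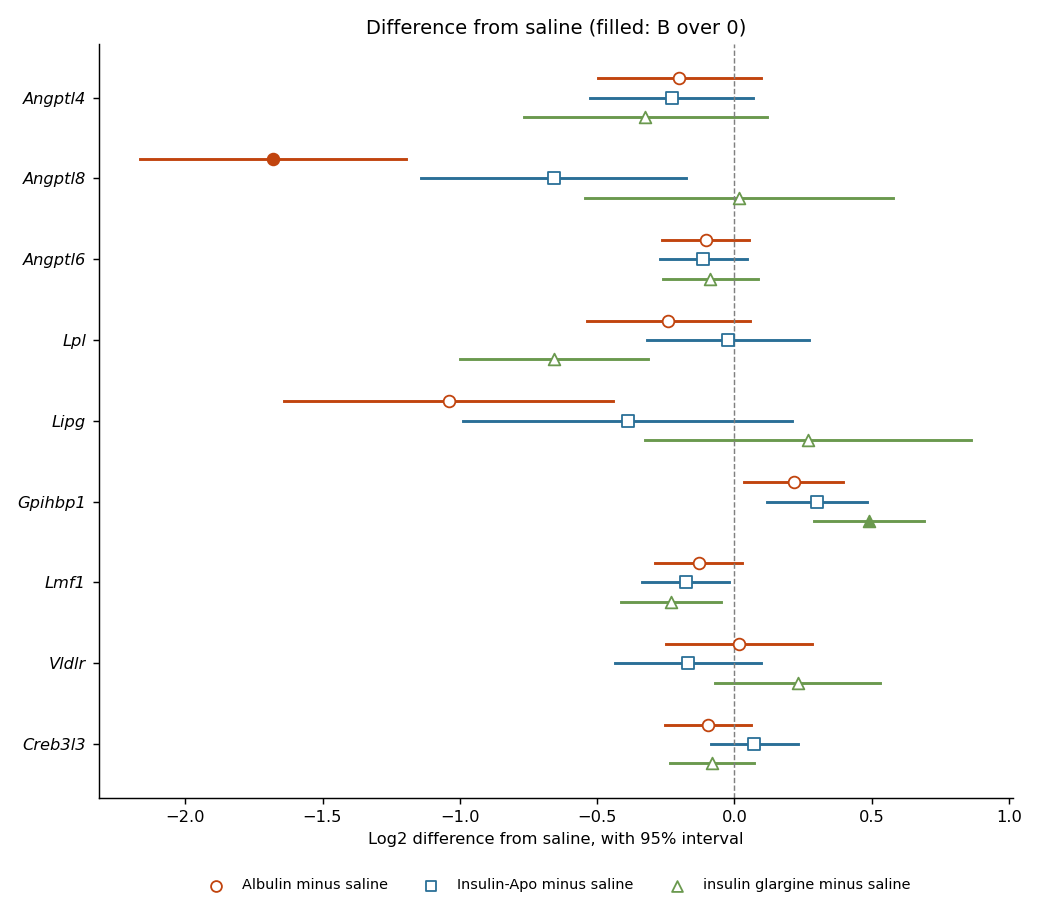
Log2 difference from saline for the 9 genes after Albulin, Insulin-Apo and insulin glargine, with 95% intervals from limma (n = 3 arrays per treatment; the insulin glargine values come from the fit of 12 arrays and the others from the fit of 9). Filled symbols mark the calls, Angptl8 after Albulin at -1.68 and Gpihbp1 after insulin glargine at 0.49.

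The insulins were then set against one another at their common dose and time, in 3 pairs for each gene, with p-values adjusted over all probe sets of each pair. Between insulin glargine and Albulin, 2 of the 9 genes were called, Angptl8 and Lipg, both higher after insulin glargine, with 2.01% of probe sets called higher and 4.35% either way. Between Albulin and Insulin-Apo none was called, against 0.639% of probe sets, and 3 had an unadjusted limma p under 0.05, against 13.5% of probe sets. Between insulin glargine and Insulin-Apo none was called, against 4.84% of probe sets, and 5 had an unadjusted limma p under 0.05, against 23.5%.

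Angptl8 was 3.24-fold higher after insulin glargine than after Albulin (difference 1.70, SE 0.26, 95% interval of the fold 2.20 to 4.78, limma adjusted p = 0.00132). All 3 insulin glargine arrays were above the Albulin arrays, as for 10.7% of probe sets. In that pair 5 of the 9 neutrophil markers were called lower after insulin glargine, with 4.35% of all probe sets called either way. The 9 differences ran from -1.09 to 0.07, with a median of -0.72. The part of neutrophils in the Angptl8 difference was not tested. Albulin minus Insulin-Apo was -1.02 (SE 0.22, B of -0.13, limma adjusted p = 0.0988), and it was not called. All 3 Albulin arrays were below the Insulin-Apo arrays, as for 9.02% of probe sets. Albulin minus Insulin-Apo stood at the edge of the rule: without Insulin-Apo replicate 2 the difference was -1.21 and was called (limma adjusted p = 0.0846), and without Insulin-Apo replicate 3 it was -0.75 and was not (limma adjusted p = 0.114). Insulin glargine minus Insulin-Apo was 0.67 (95% interval 0.12 to 1.23, limma adjusted p = 0.126), not called. The difference between insulin glargine and Albulin is thus measured by its own test, whereas that between Insulin-Apo and either of the others is not settled by these arrays.

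Lipg was 2.48-fold higher after insulin glargine than after Albulin (difference 1.31, SE 0.27, 95% interval of the fold 1.64 to 3.74, limma adjusted p = 0.00955). B was 0.03, barely over the threshold. The call was lost without Albulin replicate 1 or 2, any 1 of the Insulin-Apo arrays, saline replicate 3, or insulin glargine replicate 1 or 3, and in these 8 fits the difference was 1.07 to 1.31. Of 10 sinusoidal endothelial markers 1 was called in that pair, Kdr, lower after insulin glargine (-0.66), and of 10 vascular endothelial markers none. The sinusoidal markers went both ways, from -0.68 to 0.66 with a median of -0.24. Lyve1 was higher, averaging 11.67 after insulin glargine and 11.01 after Albulin. The vascular markers ran from -0.13 to 0.32, with a median of 0.13. The part of these cells was not tested. Insulin-Apo lay between the others, with Albulin minus Insulin-Apo at -0.65 (limma adjusted p = 0.330) and insulin glargine minus Insulin-Apo at 0.66 (limma adjusted p = 0.164).

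Lpl showed another order. It was 1.55-fold lower after insulin glargine than after Insulin-Apo (difference -0.63, SE 0.16, limma adjusted p = 0.0218, under 0.05 as for 10.8% of probe sets), with B of -1.34 and no call. All 3 insulin glargine arrays were below the Insulin-Apo arrays, as for 12.7% of probe sets. Without Insulin-Apo replicate 2 the difference was -0.78 and was called (limma adjusted p = 0.0143). It was -0.47 without insulin glargine replicate 2, -0.52 without replicate 1 of Insulin-Apo and -0.61 without its replicate 3, with limma adjusted p of 0.0652, 0.0901 and 0.0677 and no call. In that pair Marco and Cd68, of the 10 macrophage markers, were also lower after insulin glargine, at -1.18 and -0.74, and Adgre1 differed by -1.07 (limma adjusted p = 0.0121, not called). Across the 10 markers the median difference was -0.33, and the differences ran from -1.18 to 0.17. The 10 markers averaged 9.46 to 10.14 after insulin glargine and 10.03 to 10.48 after Insulin-Apo, and their part in the Lpl difference was not tested. Insulin glargine minus Albulin was -0.42 (limma adjusted p = 0.140), with all arrays lower, as for 12.3% of probe sets.

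Among the other genes, Gpihbp1 was 0.27 higher after insulin glargine than after Albulin (limma adjusted p = 0.0922) and Vldlr 0.40 higher after insulin glargine than after Insulin-Apo (limma adjusted p = 0.0902), neither called. Angptl4, Angptl6, Lmf1 and Creb3l3 had differences within 0.17 in all 3 pairs, none called. For Angptl6 the 95% intervals of all 3 pairs lay between -0.16 and 0.20.

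**Figure D4:**
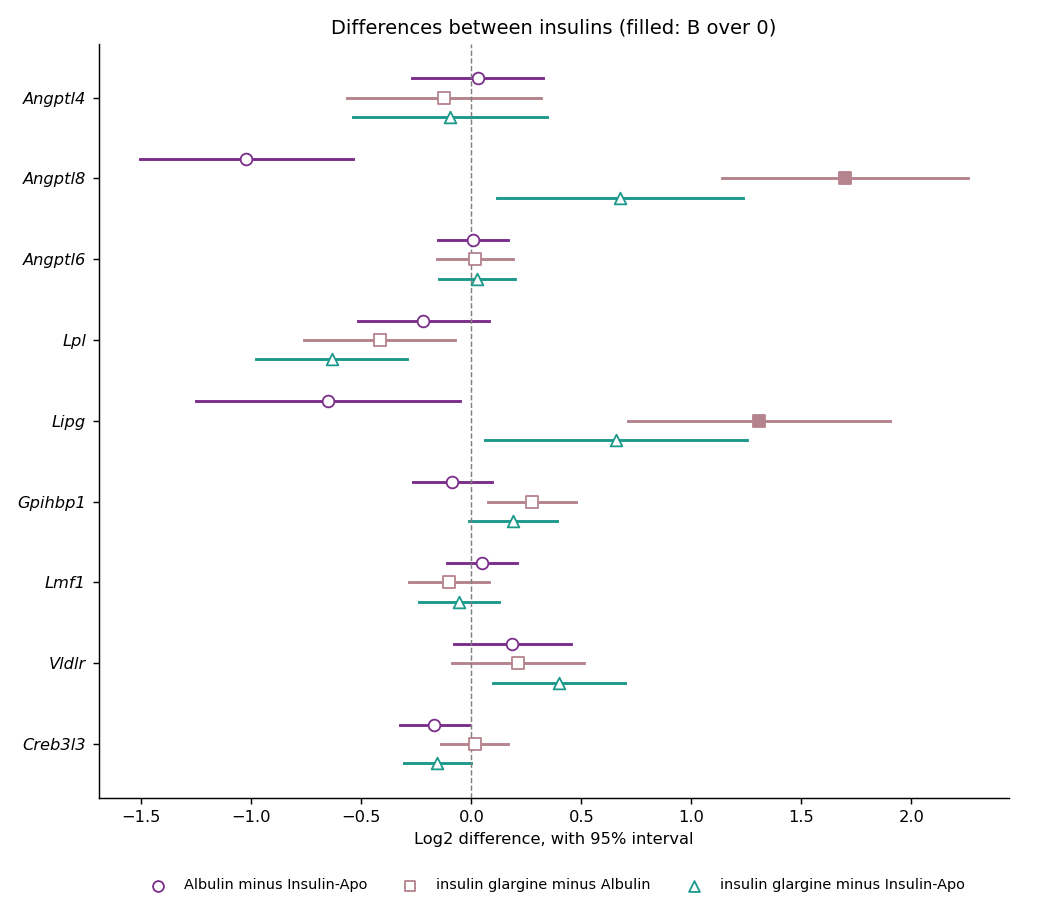
Log2 differences between the insulins for the 9 genes, with 95% intervals from limma (n = 3 arrays per treatment). Filled symbols mark the calls, Angptl8 at 1.70 and Lipg at 1.31 for insulin glargine minus Albulin; the open Angptl8 symbol at -1.02 is Albulin minus Insulin-Apo.

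Genes around the pathway were described from lists drawn up with earlier results of these arrays known. Of 7 apolipoproteins and lipase cofactors, Apoa5, which stimulates lipoprotein lipase, was lower after insulin glargine (-0.46, SE 0.09, limma adjusted p = 0.00751), and none was called after Albulin or Insulin-Apo. The list's median differences were -0.04, -0.01 and -0.07 after Albulin, Insulin-Apo and insulin glargine, and those of all probe sets lay within 0.02 of 0. Apoa5 was lower after insulin glargine also than after Albulin (-0.52) and than after Insulin-Apo (-0.55). Of 6 other lipases, among them Pnpla2, Lipe and Mgll, none was called in any comparison.

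Of 9 genes of lipoprotein uptake besides Vldlr, Lrp6 was higher after Albulin (0.35, limma adjusted p = 0.0149), and Sdc1, the heparan sulfate proteoglycan that captures remnants, was higher after insulin glargine (0.61, limma adjusted p = 0.000233). Lsr, the lipolysis-stimulated lipoprotein receptor, was lower after insulin glargine (-0.52, limma adjusted p = 0.00277). None was called after Insulin-Apo. Sdc1 was also higher after insulin glargine than after Albulin, by 0.64, and than after Insulin-Apo, by 0.59.

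Of 6 relatives and proteases of Creb3l3, Creb3l2 was higher after Albulin, by 0.92, and after Insulin-Apo, by 0.93 (limma adjusted p = 0.00534 and 0.00660), and differed by -0.17 after insulin glargine, with no call. Of 9 described targets of Creb3l3, Apcs, serum amyloid P, an acute phase protein, was higher after Albulin and after Insulin-Apo, by 0.98 and 1.28. Cidec, a lipid droplet protein, was higher after insulin glargine, by 1.75 (SE 0.36, limma adjusted p = 0.00821), and Apoa5, on this list too, was lower. Of 10 PPAR targets, the group to which Angptl4 belongs, Plin2, which coats lipid droplets, was higher after Insulin-Apo, by 0.84. After Albulin Plin2 differed by 0.61 (limma adjusted p = 0.0325, B of -0.77) and was not called. No other PPAR target was called against saline.

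Of 11 lipogenic genes, with which Angptl8 is known to be induced by feeding, 5 were higher after Albulin and none lower, with a list median of 0.70 against 0.0026 over all probe sets. Acaca, Acly and Fasn, the enzymes of fatty acid synthesis, were higher by 1.39, 1.55 and 1.42, and Thrsp, a regulator of lipogenesis, by 0.90. In the same arrays Angptl8 had a difference of -1.68. After Insulin-Apo none of the 11 was called (list median 0.03), and after insulin glargine 1 was, Thrsp, higher by 1.58 (list median 0.22).

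The genes whose pattern was most like that of Angptl8, Lipg and Lpl, the 3 genes with the widest range of means, were found by the root mean square difference over 12 arrays after each gene was centred on its own mean, among 20504 probe sets with 1 symbol. For Angptl8, which itself departed from its mean by 0.76, they were Mpzl2 at 0.32, Noct, the circadian deadenylase nocturnin, at 0.34, and Tsc22d3 (GILZ), a known glucocorticoid-induced gene, at 0.34. Noct averaged 8.77 after Albulin, 9.36 after Insulin-Apo, 10.45 after insulin glargine and 10.14 after saline. Tsc22d3 averaged 9.27 after Albulin, 9.84 after Insulin-Apo, 11.02 after insulin glargine and 10.99 after saline.

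For Lipg, which departed from its mean by 0.60, the closest were Irs1, the insulin receptor substrate, at 0.24, Cpeb2 at 0.33 and Spata2l at 0.34. Irs1 averaged 8.14 after Albulin, 8.72 after Insulin-Apo, 9.28 after insulin glargine and 8.92 after saline. For Lpl, which departed from its mean by 0.32, they were Zfp945 at 0.15, Ackr2, a scavenger receptor for chemokines, at 0.17, and Dll4, a Notch ligand of endothelium, at 0.17. Dll4 averaged 8.19 after Albulin, 8.44 after Insulin-Apo, 7.80 after insulin glargine and 8.30 after saline. These likenesses rest on 12 arrays of 4 treatments and describe the arrays only. The genes were selected for closeness on those arrays, so a shared order of treatments follows from the selection.

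**Figure D5:**
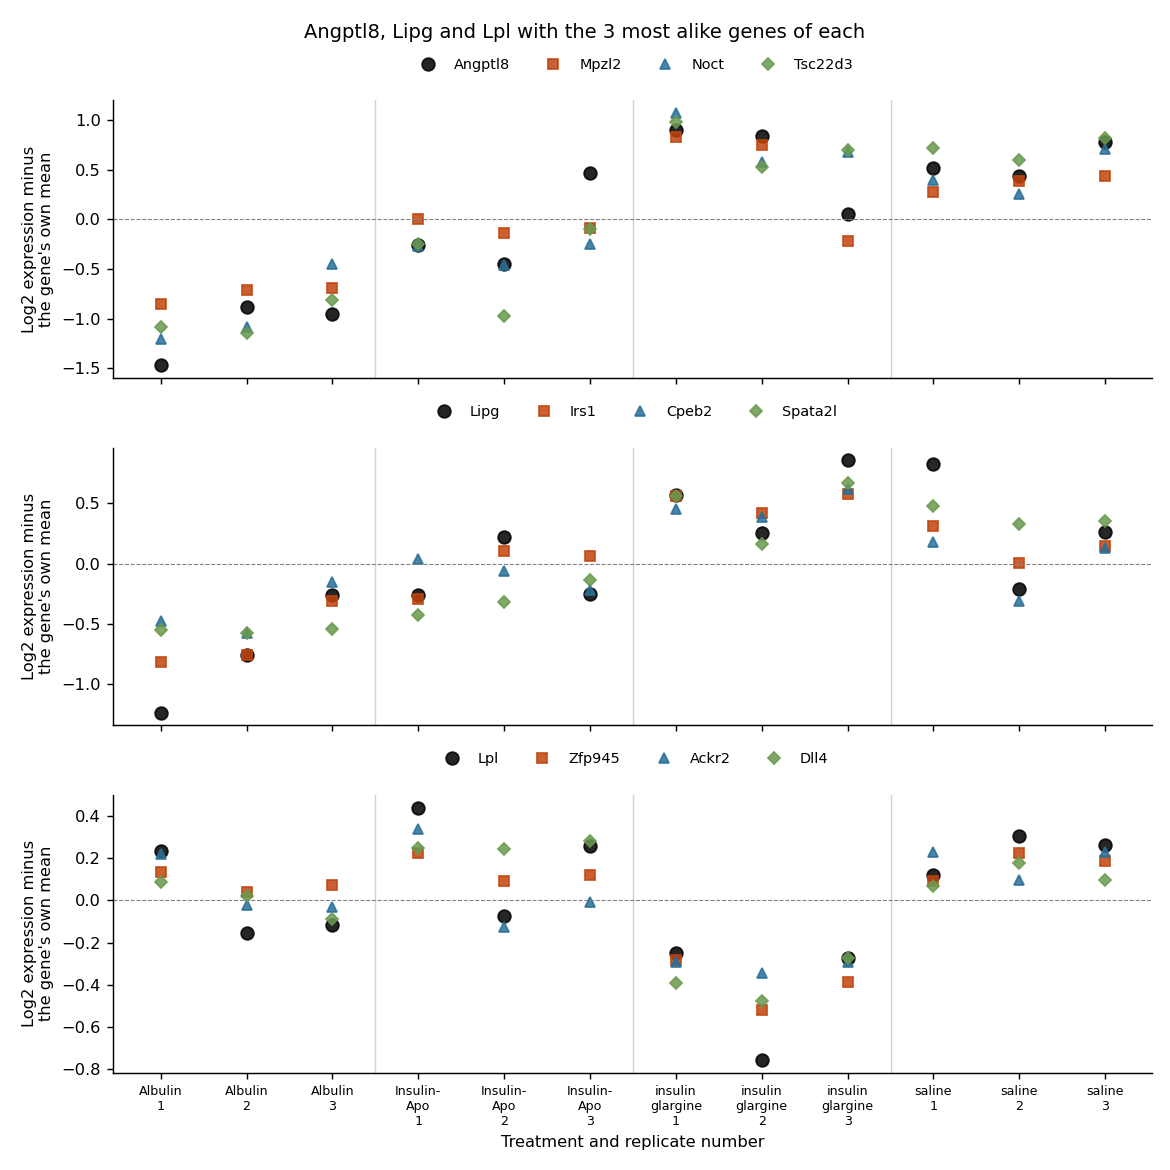
Log2 expression minus the gene's own mean over 12 arrays, for Angptl8 (upper panel), Lipg (middle) and Lpl (lower) and the 3 genes closest to each; each array stands on the horizontal axis and vertical lines part the treatments. In the upper panel all 4 genes are below 0 in the 3 Albulin arrays. In the lower panel all 4 are below 0 in the 3 insulin glargine arrays. The genes were selected for closeness on these same arrays.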

How the data were processed

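Liver RNA from 12 samples (4 treatments, 3 arrays each, grouped by the treatment label) was hybridised to Affymetrix Mouse Gene 1.0 ST arrays. The authors corrected background and normalised by robust multichip averaging (RMA), and deposited 1 log2 value for each probe set and array. The genome build of the probe sets is not given in the sources used here. Of 28213 probe sets, 21640 carried 1 gene symbol in the platform annotation, 1321 several and 5252 none.

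A probe set was kept when 2 or more arrays of any treatment exceeded 5. limma 3.58.1 in R 4.3.3 (lmFit, eBayes, prior proportion 0.01) was fitted to the 9 Albulin, Insulin-Apo and saline arrays (25989 probe sets), as in the study's methods, and to all 12 arrays (26027 probe sets) for the comparisons with insulin glargine, which those methods do not name. Calls were B over 0, and p-values were Benjamini-Hochberg adjusted over all probe sets. The fits were tested on simulated data. For a gene with several probe sets, the one with the highest mean over 12 arrays was to be used. Scaling, filter, weights, samples in the fit, call rule, a replicate block and each array left out were tried as alternatives.

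Named genes were the 9 members, up to 4 called genes per list with the smallest p against saline, cell type markers, and the 3 genes most like each of the 3 members with the widest range of means. The members and lists were chosen with earlier results of these data known.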

Additional observations from a re-analysis of the deposited data

How the results depend on the processing

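The 54 differences of the 9 genes were recomputed under 12 other settings and with each of the arrays left out, which gave 1188 values. Of these, 1136 kept their sign and their side of the threshold, 18 lost a call, 10 gained one and 24 changed sign. Part of that agreement was fixed in advance. The setting that averaged all probe sets of a gene repeated the reported fit, since each gene had 1. Settings that altered only the filter, the call rule or the trend in the prior variance could not move a difference, though a call could change. Nor could the replicate block, which was balanced, or the choice of other treatments in the fit. Among the 12 settings, only centring, repeated quantile normalisation and array quality weights could move a difference. The same holds for an array left out of a treatment outside the pair. The differences whose sign changed were at most 0.12 in size in the fits reported, and none of them was called. Angptl8 after Albulin was called in all 21 alternatives (-1.79 to -1.50) and Angptl8 in insulin glargine against Albulin in all 23 (1.51 to 1.97). Both totals include settings that could not move the difference.

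For insulin glargine against saline 0 of the 9 genes were called with only the arrays of those groups, since Gpihbp1 was lost there (limma adjusted p = 0.0393), and 2 were called at an adjusted p under 0.05, Lpl and Gpihbp1. With a change of at least 0.58 required as well, the count stayed at 1 but the gene was Lpl in place of Gpihbp1. For Albulin against Insulin-Apo 1 was called, Angptl8, with centred arrays, array quality weights or the replicate block. For insulin glargine against Albulin 1 was called, Angptl8 without Lipg, with the filter at 6, repeated quantile normalisation, the replicate block, array quality weights or only the arrays of those groups. For insulin glargine against Insulin-Apo 1 was called, Lpl, at an adjusted p under 0.05, with or without a change of at least 0.58. The cause of these shifts was not tested.

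With each array left out, the number of genes called was 1 to 1 for Albulin against saline, 0 to 1 for Insulin-Apo against saline, 0 to 1 for insulin glargine against saline, 0 to 1 for Albulin against Insulin-Apo, 1 to 2 for insulin glargine against Albulin and 0 to 1 for insulin glargine against Insulin-Apo. Differences that changed sign then ran from -0.068 to 0.11 (Vldlr, Albulin against saline), -0.14 to 0.12 (Lpl, Insulin-Apo against saline) and -0.13 to 0.29 (Angptl8, insulin glargine against saline). For Albulin against Insulin-Apo they ran from -0.13 to 0.13 (Angptl4) and -0.054 to 0.057 (Angptl6). For insulin glargine against Albulin they ran from -0.37 to 0.11 (Angptl4), -0.041 to 0.071 (Angptl6) and -0.0016 to 0.032 (Creb3l3), and against Insulin-Apo from -0.34 to 0.14 (Angptl4), -0.037 to 0.079 (Angptl6) and -0.10 to 0.026 (Lmf1). Centring turned Angptl6 between Albulin and Insulin-Apo to -0.015. Array quality weights turned Angptl6 to -0.025 for insulin glargine against Albulin and to -0.018 against Insulin-Apo, and Lmf1 to 0.0052 against Insulin-Apo.

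Replicate numbers did not pair the samples. The deviations of 18 same-numbered pairs correlated at -0.27 to 0.15 (median -0.06), 2 over 0.1, and 1 of 12 arrays was closest to its own number. With the replicate block the genes called numbered 1, 0 and 1 for Albulin, Insulin-Apo and insulin glargine against saline, 1 for Albulin against Insulin-Apo, 1 for insulin glargine against Albulin and 0 for insulin glargine against Insulin-Apo. With 3 arrays per treatment, differences smaller than the intervals given could not be told from 0.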
